A study of Mus musculus with 40 samples.

Results

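The liver of germ-free mice was used to ask whether the effect of delta-valerobetaine (VB) on gene expression depends on the diet. All 20 mice of the study entered the comparison, 5 in each of 4 groups named in the sample titles, and the 40 lane files were summed to 1 library per mouse. The groups were Western diet mice given VB, Western diet mice given vehicle, control diet mice given VB and control diet mice given vehicle, which the library names call PBS. All were male C57BL/6 mice without gut microbes, treated for 6 weeks and sampled on postnatal day 64. The quantity measured was a difference of differences, the VB effect on Western diet (VB over vehicle, log2) minus the VB effect on control diet. A positive value means that VB moved a gene further upward, or less far downward, on Western diet than on control diet, and "differed upward" and "differed downward" are used below for positive and negative values that passed the test. Levels are given as CPM, counts scaled by edgeR to a common library size with TMM factors and not corrected for gene length, and mice are listed in order of their number.

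VB is a bacterial metabolite with a trimethylated ammonium group, close in structure to gamma-butyrobetaine, the direct precursor of carnitine. Carnitine carries long-chain fatty acids into mitochondria for beta-oxidation, and the liver both makes it and takes it up. When fat reaches the liver faster than it is burned or exported, it is stored as triglyceride in lipid droplets, from which lipases release it again. Fatty acids also bind the nuclear receptor PPARA, which switches on genes of their own oxidation, while PPARG drives storage genes in the fatty liver. Cholesterol that reaches the liver represses the genes of cholesterol synthesis through the SREBP2 pathway.

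Library totals ran from 18157449 to 24566686 counts with VB and from 16315342 to 22226536 counts with vehicle on Western diet, and from 19762505 to 23202394 counts with VB and from 18126657 to 21308298 counts with vehicle on control diet. Hepatocyte markers together took between 76880 and 111727 CPM in every mouse. Western diet vehicle mouse 4 stood apart with 4.62% of counts from mitochondrially encoded genes, against 2.34 to 2.68% in the other 4 mice of its group. The difference of VB effects in this share was -0.33 percentage points (exact permutation test, 2-sided, p = 0.603) and 0.084 points without mouse 4. Library names have a different form on each diet, so each VB effect lies within 1 naming form. Any handling step that follows the naming form cannot be told apart from diet. The libraries are also numbered group by group, so a step that follows that order cannot be told apart from VB either. The labels give no collection time, and a core clock score, the first principal component of 23 clock genes scaled to an SD of 1, differed between the groups. The mean score was 0.28 ± 0.44 with VB on Western diet, against 1.29 ± 0.086 with vehicle, and -0.28 ± 0.23 with VB on control diet, against -1.29 ± 0.36 with vehicle (SD, n = 5 each). With this score as a covariate 1 gene, Hspa1a, passed the test of the diet by VB difference (6.12, edgeR adjusted p = 0.0486), and 820 had an unadjusted p under 0.05. Of the 964 genes called without the covariate, 899 kept their sign, their median absolute difference was 0.60 with the covariate and 0.84 without it, and their median SE was 0.41 with it and 0.20 without it.

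The VB effect differed between the diets for 964 of 12616 tested genes at an adjusted p under 0.05 in edgeR's quasi-likelihood test, which is 7.64% of genes. Of these 458 differed upward (3.63%) and 506 downward (4.01%), and 2605 genes had an unadjusted p under 0.05. VB changed 907 genes on Western diet (7.19%), with 420 higher (3.33%) and 487 lower (3.86%). On control diet VB changed 19 genes (0.151%), with 7 higher (0.0555%) and 12 lower (0.0951%). At an unadjusted p under 0.05 that count was 1354. Without Western diet vehicle mouse 4 the diet by VB count was 1702. Of the 213 called genes that stand in the lists used below, 152 kept their call in all 20 fits that left out 1 mouse, 17 lost it in 1 to 9 of them and 44 in 10 or more. Those last 44 include Acaa1a, Acsl1, Bbox1, Clk4, Crat, Dnajb11, Ehhadh, Hspa13, Hsph1, Lpl, Mat1a, Nktr, Nr1i2, Plin2, Ppara, Rpl3, Serpina12, Slc25a20 and Sqle.

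VB effects on the diets had opposite signs more often than the same sign. Among all 12616 tested genes the effects of VB on the diets, which share no mice, had opposite signs in 57.8%, and their correlation across genes was -0.27 (Pearson) or -0.24 (Spearman). Genes are not independent replicates, so these values describe the pattern only. The median absolute effect of VB over all genes was 0.17 on Western diet and 0.14 on control diet. Among the 964 called genes the signs were opposite in 932 (96.7%), which a test for a large difference favours. The effect was the larger on Western diet in 773 called genes (80.2%), against 57.1% of all tested genes. Both VB group means lay between both vehicle group means in 505 called genes (52.4%), against 24.1% of all tested genes. Such a position needs VB effects of opposite sign, so the test favours it too. By definition such a position also makes the diet gap narrower in VB mice than in vehicle mice for these 505 genes. The Western diet VB and vehicle mice did not overlap in 458 called genes (47.5%), against 5.56% of all tested genes, and the control diet mice did not overlap in 179 (18.6%), against 3.88% of all. Neither pair overlapped in 58 called genes and in 63 of all tested genes.

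**Figure D1:**
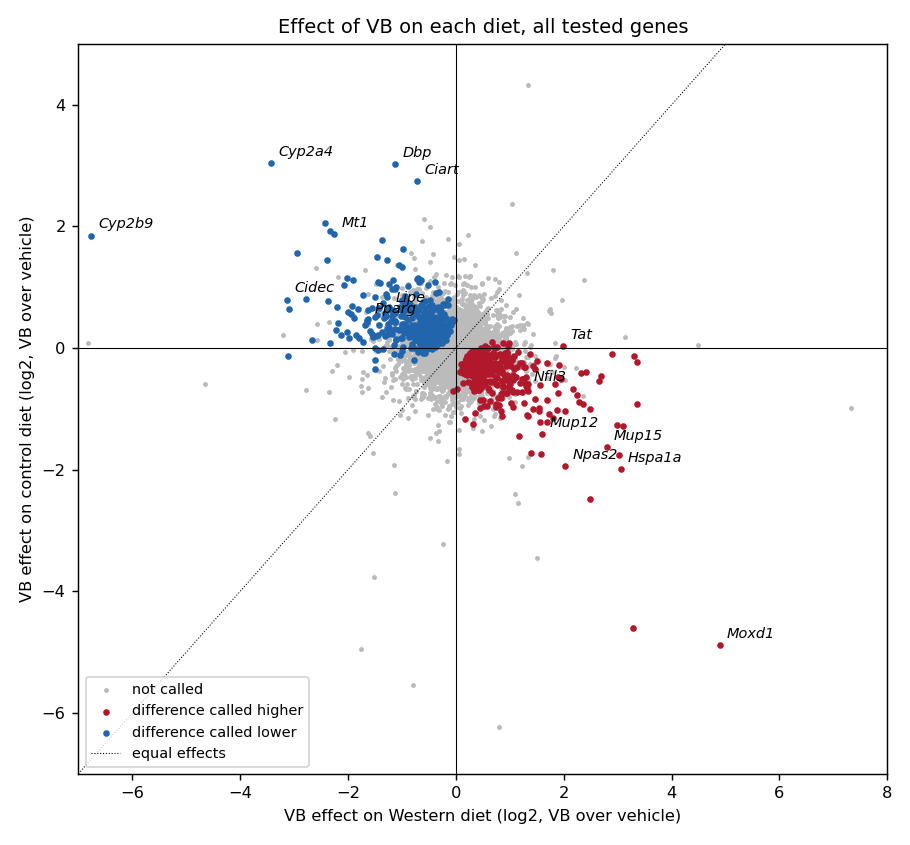
Effect of VB on Western diet (horizontal, log2 of VB over vehicle) and on control diet (vertical) for each of the 12616 tested genes. Red and blue points are the 458 genes that differed upward and the 506 that differed downward, the dotted line marks equal effects, and most called genes lie in the lower right and upper left, away from that line.

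8 genes passed the test on each diet taken alone, and in all 8 the VB effects had opposite directions. Hspa1a, Acrbp, Cited2, Clk1 and Npas2 were higher with VB on Western diet and lower with VB on control diet. Sec22c, Bnip3 and Tgm1 were lower with VB on Western diet and higher with VB on control diet. The 8 were named because they passed both tests, after their values were seen.

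Among the 15 genes with the smallest p the heat shock gene Hspa1a had the largest difference. Heat shock factor HSF1 switches on chaperones when proteins misfold, and the inducible HSP70 genes Hspa1a and Hspa1b are its classic targets. Hspa1a (chromosome 17, 34969190 to 34972156, minus strand, GRCm38) stood at 5.59, 6.99, 5.11, 5.61 and 2.55 CPM in Western diet VB mice, against 0.660, 0.648, 0.476, 0.429 and 0.824 CPM in Western diet vehicle mice. For Hspa1a on control diet the levels were 2.41, 1.88, 1.61, 0.470 and 0.549 CPM in control diet VB mice, against 5.11, 7.83, 6.88, 4.93 and 3.16 CPM in control diet vehicle mice. The Western diet VB mice and the control diet vehicle mice were the high groups, and VB and vehicle mice did not overlap on either diet. The VB effect on Hspa1a was 3.05 (SE 0.39) on Western diet and -1.996 (SE 0.35) on control diet, a difference of 5.05 (SE 0.53) on the log2 scale (edgeR adjusted p = 1.16e-05). Read the other way, Western over control diet was 1.88 (SE 0.35) in VB mice and -3.17 (SE 0.39) in vehicle mice.

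Hspa1b, the near-identical neighbour of Hspa1a, differed by 3.15 (SE 0.56), with 2.696 (SE 0.41) on Western diet and -0.45 (SE 0.38) on control diet. Reads that match both copies may have been split between them, so the value of each copy alone is uncertain. In the 250 bases before the start of each copy, RefSeq's windows (build GRCm38.p6) hold 1 heat shock element of the form GAANNTTC, the pair of inverted GAA units that HSF1 binds. Of all 32851 RefSeq promoter windows 6.69% hold these letters in those bases, and TTCNNGAA, the other arrangement, is in 7.17%. The stretches around the match are shown because they show how alike the copies are, and the match is in capitals.
Hspa1a, chr17:34972157-34972307, minus strand: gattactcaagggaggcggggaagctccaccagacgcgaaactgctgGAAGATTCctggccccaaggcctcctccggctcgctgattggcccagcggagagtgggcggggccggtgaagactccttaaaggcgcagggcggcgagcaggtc
Hspa1b, chr17:34959239-34959389, minus strand: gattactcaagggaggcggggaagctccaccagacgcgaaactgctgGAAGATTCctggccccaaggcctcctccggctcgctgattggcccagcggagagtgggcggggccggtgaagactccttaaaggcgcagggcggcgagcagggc
The 151 bases differ between the copies at 1 position. Of the 8 called members of the heat shock list 6 have a window, of which 2 hold GAANNTTC (Hspa1a and Hspa1b) and 2 hold TTCNNGAA (Hsph1 and Dnajb4), with both strands searched. Of 10 called genes of the cholesterol list below that have a window, 2 hold GAANNTTC (Idi1 and Tm7sf2) and 0 hold TTCNNGAA. Of 11 called core clock genes 0 hold either form.

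Bag3, a co-chaperone that hands HSP70 clients to autophagy, stood at 23.04, 37.2, 30.9, 31.8 and 26.1 CPM in Western diet VB mice, against 15.3, 14.9, 11.5, 14.2 and 12.8 CPM in Western diet vehicle mice. Bag3 on control diet was at 21.2, 16.5, 16.9, 12.8 and 14.1 CPM in control diet VB mice, against 23.9, 21.9, 24.8, 21.5 and 21.5 CPM in control diet vehicle mice. Western diet VB mice and control diet vehicle mice were again the high groups, with no overlap on either diet. The difference of VB effects on Bag3 was 1.59 (SE 0.19, edgeR adjusted p = 3.68e-05). Dnajb1, an HSP40 partner of HSP70, was at 48.9, 60.7, 45.99, 52.2 and 34.9 CPM in Western diet VB mice, against 25.5, 27.2, 19.6, 24.3 and 18.1 CPM in Western diet vehicle mice. Dnajb1 in control diet livers was at 47.2, 33.2, 37.7, 32.8 and 26.2 CPM in control diet VB mice, against 47.1, 49.2, 41.9, 46.8 and 38.9 CPM in control diet vehicle mice. All Western diet VB mice lay above the vehicle mice, while the control diet groups overlapped, and Dnajb1 differed by 1.42 (SE 0.21, edgeR adjusted p = 0.000383). In the list of 23 tested HSF1 targets and heat shock genes 8 differed upward and none downward, beside 3.63% upward among all genes. The others that passed were Hspa8, the constitutive HSP70 (0.77, SE 0.18), the HSP110 gene Hsph1 (0.80, SE 0.24), Dnajb4 (0.97, SE 0.19) and Hspa13 (0.51, SE 0.15). The mitochondrial chaperones Hspd1 (-0.14, SE 0.10) and Hspe1 (0.10, SE 0.18), the small heat shock gene Hspb1 (-0.54, SE 0.33) and Hsf1 itself (0.31, SE 0.17) did not pass. The median of the list was 0.19, against -0.02 over all genes, 0.21 with the clock score in the fit and 0.33 without Western diet vehicle mouse 4. Grpel2, a nucleotide exchange factor of the mitochondrial HSP70, differed the other way, by -1.57 (SE 0.21), with 20.9 ± 2.39 CPM in Western diet VB mice, against 45.6 ± 5.39 CPM in Western diet vehicle mice, and on control diet 36.9 ± 7.43 CPM in VB mice, against 27.1 ± 5.86 CPM in vehicle mice (SD, n = 5 each).

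Called genes of endoplasmic reticulum stress and of splicing also differed upward. Of 23 tested genes of the unfolded protein response 5 differed upward and none downward, with a median of 0.34. They were the co-chaperone gene Dnajb9 (1.24, SE 0.22), the stress transcription factor gene Ddit3 (1.65, SE 0.40), the degradation factor gene Herpud1 (0.92, SE 0.24), Manf (1.07, SE 0.28), which encodes a secreted stress factor, and Dnajb11 (0.58, SE 0.17). Hspa5, which encodes the main chaperone BiP, was at 0.69 (SE 0.25) and did not pass (edgeR adjusted p = 0.107). With the clock score in the fit the median of this list was 0.024. Of 20 genes of the amino acid response 2 differed upward, its transcription factor gene Atf4 (0.86, SE 0.18) and Ddit3, and 2 downward, Vldlr (-4.25, SE 0.68) and the transaminase gene Gpt2 (-0.62, SE 0.17). The level of Vldlr was low, with group means of 0.472 to 2.46 CPM. The Gpt2 call was lost in 8 of the 20 fits that left out 1 mouse, and the median of the list was 0.28, or 0.53 with the clock score in the fit.

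Tra2b, a splicing activator, stood at 31.1, 38.3, 35.2, 30.1 and 37.3 CPM in Western diet VB mice, against 27.2, 22.9, 19.9, 19.2 and 21.5 CPM in Western diet vehicle mice. Tra2b on control diet was at 29.8, 29.3, 32.2, 24.7 and 28.8 CPM in control diet VB mice, against 39.7, 34.3, 35.9, 34.2 and 40.2 CPM in control diet vehicle mice. VB and vehicle mice did not overlap on either diet, with VB higher on Western and lower on control diet, and the difference was 0.98 (SE 0.14, edgeR adjusted p = 0.000298). Of 22 genes of splicing and of the cold response 6 differed upward and none downward, with a median of 0.46, or 0.21 with the clock score in the fit. Besides Tra2b these were the kinases of splicing factors Clk1 (1.100, SE 0.17), Clk3 (0.47, SE 0.12) and Clk4 (0.53, SE 0.16), the splicing factor Srsf2 (0.66, SE 0.18) and Nktr (0.63, SE 0.18). The temperature-sensitive genes Cirbp (0.039, SE 0.25) and Rbm3 (0.0011, SE 0.25) did not pass. Without control diet vehicle mouse 1 the count in this list was 3.

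**Figure D2:**
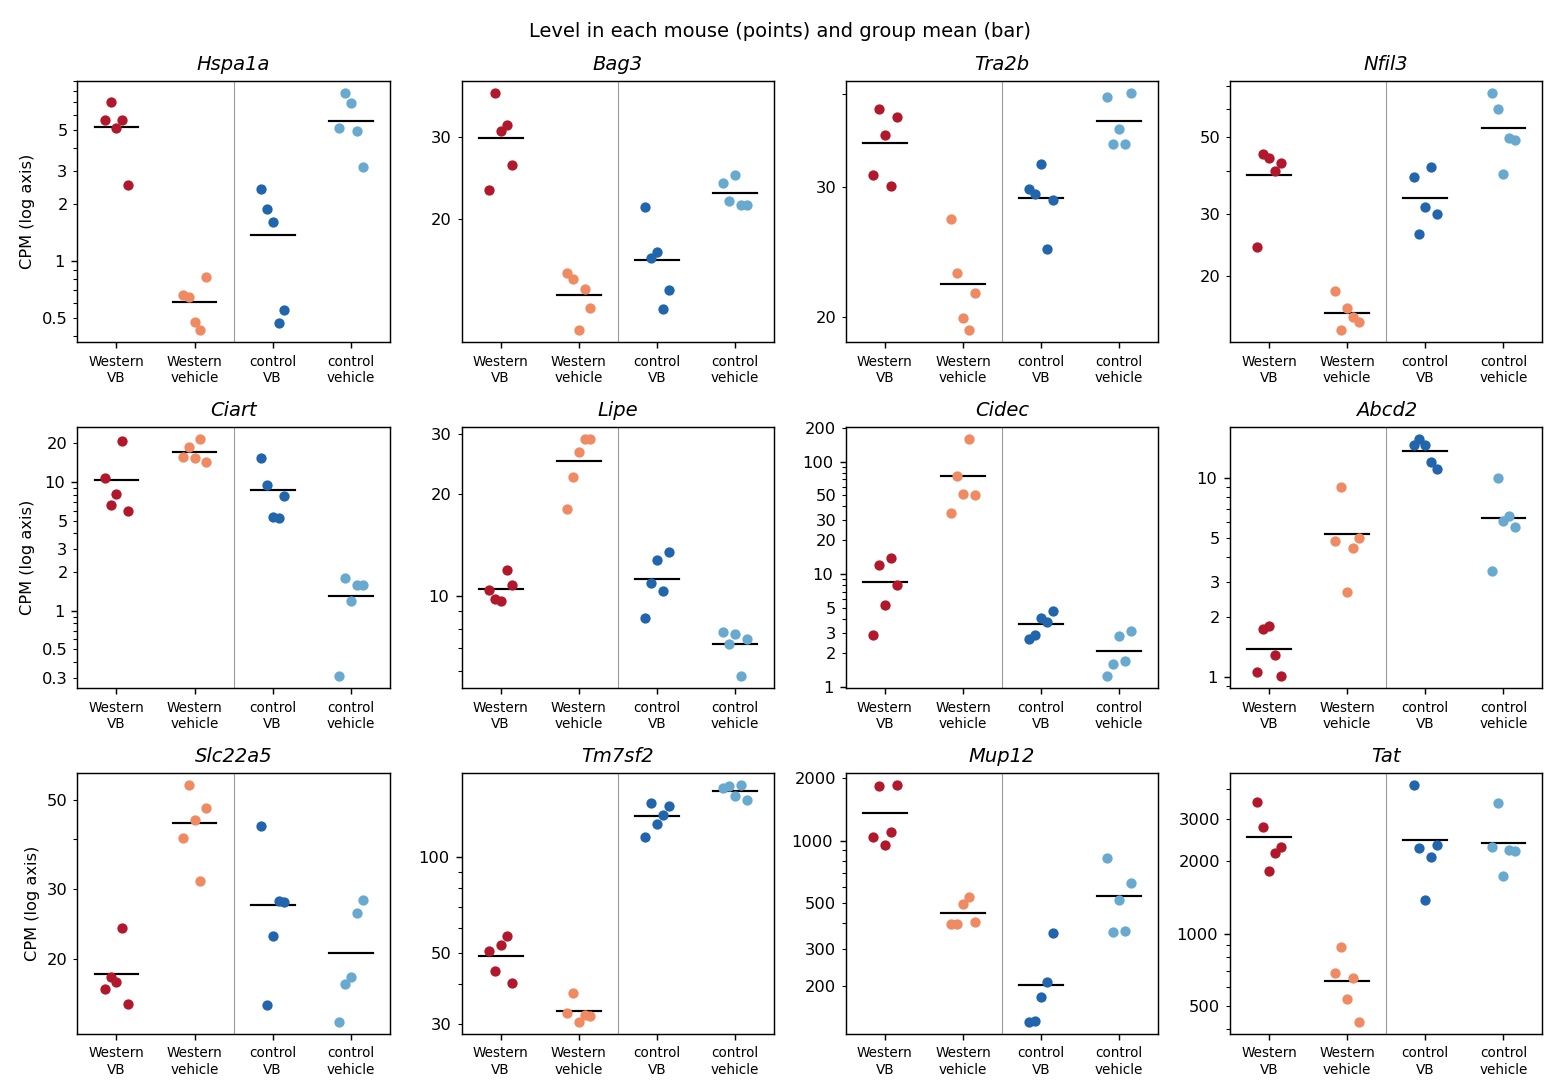
CPM of 12 genes in each of the 20 mice on a log axis, with points for mice and bars for group means, in the order Western diet VB, Western diet vehicle, control diet VB and control diet vehicle. Hspa1a, Bag3, Tra2b, Tm7sf2 and Mup12 are higher with VB on Western diet and lower with VB on control diet in every mouse, and Lipe and Abcd2 show the reverse.

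The gene with the smallest p was Lipe (chromosome 7, 25379527 to 25398710, minus strand), which encodes hormone-sensitive lipase. Lipe stood at 10.4, 9.80, 9.66, 11.9 and 10.8 CPM in Western diet VB mice, against 18.1, 22.5, 26.6, 29.1 and 29.05 CPM in Western diet vehicle mice. In control diet livers Lipe was at 8.57, 10.9, 12.7, 10.4 and 13.4 CPM in control diet VB mice, against 7.80, 7.20, 7.74, 5.79 and 7.43 CPM in control diet vehicle mice. Every VB mouse lay below every vehicle mouse on Western diet and above every vehicle mouse on control diet. The VB effect on Lipe was -1.25 (SE 0.14) on Western diet and 0.64 (SE 0.14) on control diet, and the difference was -1.89 (SE 0.19, edgeR adjusted p = 1.16e-05). Western over control diet was -0.093 (SE 0.14) in VB mice and 1.799 (SE 0.14) in vehicle mice.

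Pnpla2, which encodes adipose triglyceride lipase, the enzyme of the first step of triglyceride breakdown, stood at 65.4, 63.0001, 69.4, 91.1 and 84.2 CPM in Western diet VB mice, against 102, 131, 111, 124 and 124 CPM in Western diet vehicle mice. Pnpla2 on control diet was at 94.9, 92.2, 82.3, 95.5 and 102 CPM in control diet VB mice, against 55.99, 62.6, 62.9, 74.5 and 76.2 CPM in control diet vehicle mice. Its groups did not overlap on either diet, in the same directions as Lipe, and it differed by -1.15 (SE 0.15, edgeR adjusted p = 0.000159). Of 17 tested lipase genes 3 differed downward, Lipe, Pnpla2 and the monoacylglycerol lipase Abhd6 (-0.82, SE 0.21). Lpl, lipoprotein lipase, differed upward by 0.91 (SE 0.28). The Lpl call was lost in 16 of the 20 fits that left out 1 mouse, and no lipase was called upward without Mup genes in the library sizes, without the filter on low counts or from lane 1 alone. The median of the lipase list was -0.14, or 0.079 with the clock score in the fit, and 7 of its 17 genes had a positive value. Gpcpd1, which breaks down glycerophosphocholine, was at 64.8, 63.3, 60.6, 60.7 and 63.9 CPM in Western diet VB mice, against 139, 133, 141, 138 and 209 CPM in Western diet vehicle mice. Gpcpd1 on control diet was at 44.4, 64.05, 57.1, 67.8 and 91.8 CPM in control diet VB mice, against 27.9, 28.7, 37.1, 31.5 and 55.8 CPM in control diet vehicle mice. Vehicle mouse 5 was the highest of its group on both diets, only the Western diet groups were apart, and the difference was -2.12 (SE 0.26, edgeR adjusted p = 9.61e-05).

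Lipid droplet genes that passed differed downward. Cidec, which fuses droplets into larger ones, stood at 2.86, 12.1, 5.36, 13.8 and 8.03 CPM in Western diet VB mice, against 35.1, 74.6, 51.2, 159.9 and 50.1 CPM in Western diet vehicle mice. Cidec on control diet was at 2.63, 2.88, 4.08, 3.76 and 4.66 CPM in control diet VB mice, against 1.24, 1.58, 2.79, 1.67 and 3.11 CPM in control diet vehicle mice. The Western diet vehicle mice lay far above all others, with mouse 4 at the top, while the control diet groups overlapped, and Cidec differed by -3.93 (SE 0.64, edgeR adjusted p = 0.00123). Of 19 tested droplet genes 6 differed downward and none upward, with a median of -0.64, or -0.41 with the clock score in the fit. Fitm2, which helps droplets bud from the endoplasmic reticulum, was at -1.34 (SE 0.24), the droplet coat gene Plin4 at -2.38 (SE 0.51) and the triglyceride-making enzyme gene Mogat1 at -2.15 (SE 0.52). The main liver coat gene Plin2 (-0.54, SE 0.16) and the droplet enzyme gene Hsd17b13 (-0.64, SE 0.16) made up the rest. Cidea (-4.06, SE 1.81), Plin5 (-0.69, SE 0.23) and G0s2 (-1.68, SE 0.59) did not pass. Cidec and Lipe also belong to the adipocyte list, and the markers of other cells are given further on.

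Pparg, the receptor of the storage programme, stood at 7.20, 5.93, 7.24, 4.89 and 2.79 CPM in Western diet VB mice, against 13.2, 11.3, 17.2, 24.97 and 21.1 CPM in Western diet vehicle mice. Pparg on control diet was at 5.40, 7.93, 7.10, 8.66 and 5.53 CPM in control diet VB mice, against 4.65, 5.46, 4.67, 5.11 and 5.38 CPM in control diet vehicle mice. The Western diet vehicle mice were above all others and the control diet groups overlapped, with a difference of -2.09 (SE 0.32, edgeR adjusted p = 0.00048). Of 17 tested genes of fatty acid uptake and of PPARG 6 differed downward and 2 upward. Those downward included the fatty acid receptor Cd36 (-1.96, SE 0.44), the transporters Slc27a1 (-1.07, SE 0.20) and Slc27a2 (-0.65, SE 0.15) and the lipoprotein receptor Vldlr (-4.25, SE 0.68). The low level of Vldlr is given above. The acyl-CoA synthetase Acsl1 (-0.71, SE 0.22) differed downward and its relative Acsl3 (1.45, SE 0.31) upward. The median of this list was -0.24, or -0.37 with the clock score in the fit.

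Targets of PPARA and genes of fatty acid oxidation that passed all differed downward. Of 33 tested PPARA targets 18 differed downward and none upward, beside 4.01% downward among all genes, with a median of -0.90. With the clock score in the fit that median was -0.50, and leaving out 1 mouse at a time gave 12 to 22 calls. The median VB effect on these targets was -0.63 on Western diet and 0.17 on control diet. Besides genes named elsewhere in this account, Vnn1, a pantetheinase, was at -2.595 (SE 0.49), the peroxisome proliferation gene Pex11a at -1.18 (SE 0.27), the aldehyde dehydrogenase Aldh3a2 at -1.04 (SE 0.21) and Retsat at -0.90 (SE 0.18). Classic targets did not all pass, with Cyp4a14 at -3.91 (SE 1.18), Cyp4a10 at -2.01 (SE 0.72), Fgf21 at -1.38 (SE 0.50), Pdk4 at -0.15 (SE 0.55) and Angptl4 at -0.048 (SE 0.23). Ppara itself differed by -0.77 (SE 0.22).

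Abcd2, which brings very long chain fatty acids into peroxisomes, stood at 1.06, 1.75, 1.80, 1.29 and 1.01 CPM in Western diet VB mice, against 4.84, 9.07, 2.68, 4.44 and 4.997 CPM in Western diet vehicle mice. Abcd2 on control diet was at 14.6, 15.8, 14.7, 12.1 and 11.2 CPM in control diet VB mice, against 3.41, 9.98, 6.07, 6.43 and 5.69 CPM in control diet vehicle mice. Groups did not overlap on either diet, VB was the lower on Western and the higher on control diet, and the difference was -3.02 (SE 0.39, edgeR adjusted p = 0.000129). Unlike most genes above, Abcd2 had a wider diet gap in VB mice than in vehicle mice, with Western over control diet at -3.29 (SE 0.29) in VB mice and -0.27 (SE 0.26) in vehicle mice. Of 19 tested peroxisomal genes 9 differed downward and none upward, with a median of -0.50. Hsd17b4 (-0.55, SE 0.12), Ehhadh (-0.67, SE 0.21) and Acaa1a (-0.53, SE 0.16), which encode enzymes of peroxisomal beta-oxidation, were among them.

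Acadm, the medium-chain acyl-CoA dehydrogenase of mitochondrial oxidation, stood at 262, 234, 274, 318 and 223 CPM in Western diet VB mice, against 419, 445, 400.2, 457 and 351 CPM in Western diet vehicle mice. Acadm on control diet was at 359, 275, 312, 309 and 329 CPM in control diet VB mice, against 216, 263, 272, 351 and 326 CPM in control diet vehicle mice. Only the Western diet groups were apart, and Acadm differed by -0.81 (SE 0.17, edgeR adjusted p = 0.00499). Of 18 mitochondrial oxidation genes 8 differed downward and none upward, with a median of -0.44, or -0.20 with the clock score in the fit. The count was 5 without Western diet vehicle mouse 2, without control diet VB mouse 1 and without control diet vehicle mice 1 or 3. The effects were small, with Eci2, an enoyl-CoA isomerase, at -0.82 (SE 0.19), Acadl at -0.60 (SE 0.14), Hadh at -0.60 (SE 0.15) and Acads at -0.36 (SE 0.094). Of 8 ketone body genes 3 differed downward, among them Bdh1 (-0.63, SE 0.16), which interconverts the ketone bodies and had the opposite sign with the clock score in the fit (0.29). None of 66 nuclear genes of the respiratory chain passed in edgeR and none had an unadjusted p under 0.05, while limma-voom called 1 and DESeq2 none. Without Western diet vehicle mouse 4 edgeR called 3 upward and 1 downward.

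Carnitine genes that passed differed downward too. Slc22a5 (chromosome 11, 53864542 to 53891660, minus strand), the gene of OCTN2, the transporter that brings carnitine into cells, stood at 16.9, 18.1, 17.5, 23.9 and 15.5 CPM in Western diet VB mice, against 40.1, 54.7, 44.6, 31.5 and 47.7 CPM in Western diet vehicle mice. Slc22a5 on control diet was at 42.99, 15.4, 22.8, 27.99 and 27.8 CPM in control diet VB mice, against 13.9, 17.3, 18.1, 26.1 and 28.1 CPM in control diet vehicle mice. The Western diet vehicle mice were above the VB mice without overlap, the control diet groups overlapped, and the difference was -1.65 (SE 0.32, edgeR adjusted p = 0.00322). Of 14 tested genes of carnitine synthesis, uptake and the carnitine shuttle 5 differed downward and none upward, with a median of -0.43, or -0.20 with the clock score in the fit. Cpt1a, the gate of mitochondrial fatty acid entry, was at -1.06 (SE 0.21), with a VB effect of -0.51 (SE 0.15) on Western diet and 0.56 (SE 0.15) on control diet. The carnitine acetyltransferase Crat was at -0.85 (SE 0.25), the carrier Slc25a20 at -0.59 (SE 0.17) and Bbox1, which turns gamma-butyrobetaine into carnitine, at -0.42 (SE 0.12). The earlier synthesis enzymes Tmlhe (-0.25, SE 0.15) and Aldh9a1 (-0.14, SE 0.12) did not pass, and neither did Cpt2 (-0.36, SE 0.13). The count was 7 without Western diet vehicle mouse 4. It was 2 or 3 without any of Western diet VB mice 1, 2, 3 and 5, Western diet vehicle mice 2 and 5, control diet VB mice 1, 3, 4 and 5 and control diet vehicle mice 1, 2 and 3.

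Slc5a6, which imports pantothenate, the vitamin from which coenzyme A is made, stood at 8.63, 5.62, 7.86, 8.75 and 6.01 CPM in Western diet VB mice, against 14.5, 24.2, 24.3, 15.02 and 26.2 CPM in Western diet vehicle mice. Slc5a6 on control diet was at 11.2, 7.85, 11.6, 7.81 and 8.41 CPM in control diet VB mice, against 2.996, 5.41, 4.03, 6.74 and 7.12 CPM in control diet vehicle mice. Groups were apart on both diets in opposite directions, and the difference was -2.33 (SE 0.31, edgeR adjusted p = 0.000159). Of 13 coenzyme A genes 4 differed downward, among them the pantothenate kinases Pank1 (-0.73, SE 0.14) and Pank3 (-0.47, SE 0.13), and 1, the peroxisomal hydrolase Nudt7 (0.99, SE 0.23), upward. Of 11 acyl-CoA thioesterases 5 differed downward, with Acot2 at -2.06 (SE 0.41), Acot3 at -4.51 (SE 0.97) and Acot4 at -1.81 (SE 0.37). Acot1 to Acot4 lie side by side and share sequence, so single values are uncertain.

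Genes of cholesterol synthesis that passed all differed upward. Tm7sf2, a sterol reductase of that pathway, stood at 50.8, 43.9, 52.9, 56.8 and 40.2 CPM in Western diet VB mice, against 32.5, 37.6, 30.4, 32.1 and 31.7 CPM in Western diet vehicle mice. Tm7sf2 on control diet was at 116, 148, 127, 136 and 145 CPM in control diet VB mice, against 165, 167, 156, 169 and 151 CPM in control diet vehicle mice. VB mice were above vehicle mice on Western diet and below them on control diet, with no overlap, and the difference was 0.84 (SE 0.13, edgeR adjusted p = 0.000527). On either treatment the Western diet mice lay far below the control diet mice. Of 26 tested genes of cholesterol synthesis and uptake 13 differed upward and none downward, with a median of 0.68, or 1.43 with the clock score in the fit. Leaving out 1 mouse at a time gave 9 to 15 calls. The decarboxylase Mvd differed by 2.04 (SE 0.33), the kinase Pmvk by 1.18 (SE 0.23), the squalene enzyme Sqle by 1.31 (SE 0.38) and the sterol sensor Insig1 by 1.57 (SE 0.34). The regulator Srebf2 (0.39, SE 0.17) did not pass. None of 12 sterol export genes passed in edgeR, DESeq2 or limma-voom, and 1 had an unadjusted p under 0.05, with Abcg5 at -0.10 (SE 0.23) and Abca1 at 0.27 (SE 0.17). Of 23 lipogenic genes 1 passed (4.35%, near the 3.63% upward among all genes), the sugar-sensing factor Mlxipl, upward by 0.89 (SE 0.18). Fasn (1.34, SE 0.60) and Srebf1 (1.34, SE 0.50) did not pass.

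**Figure D3:**
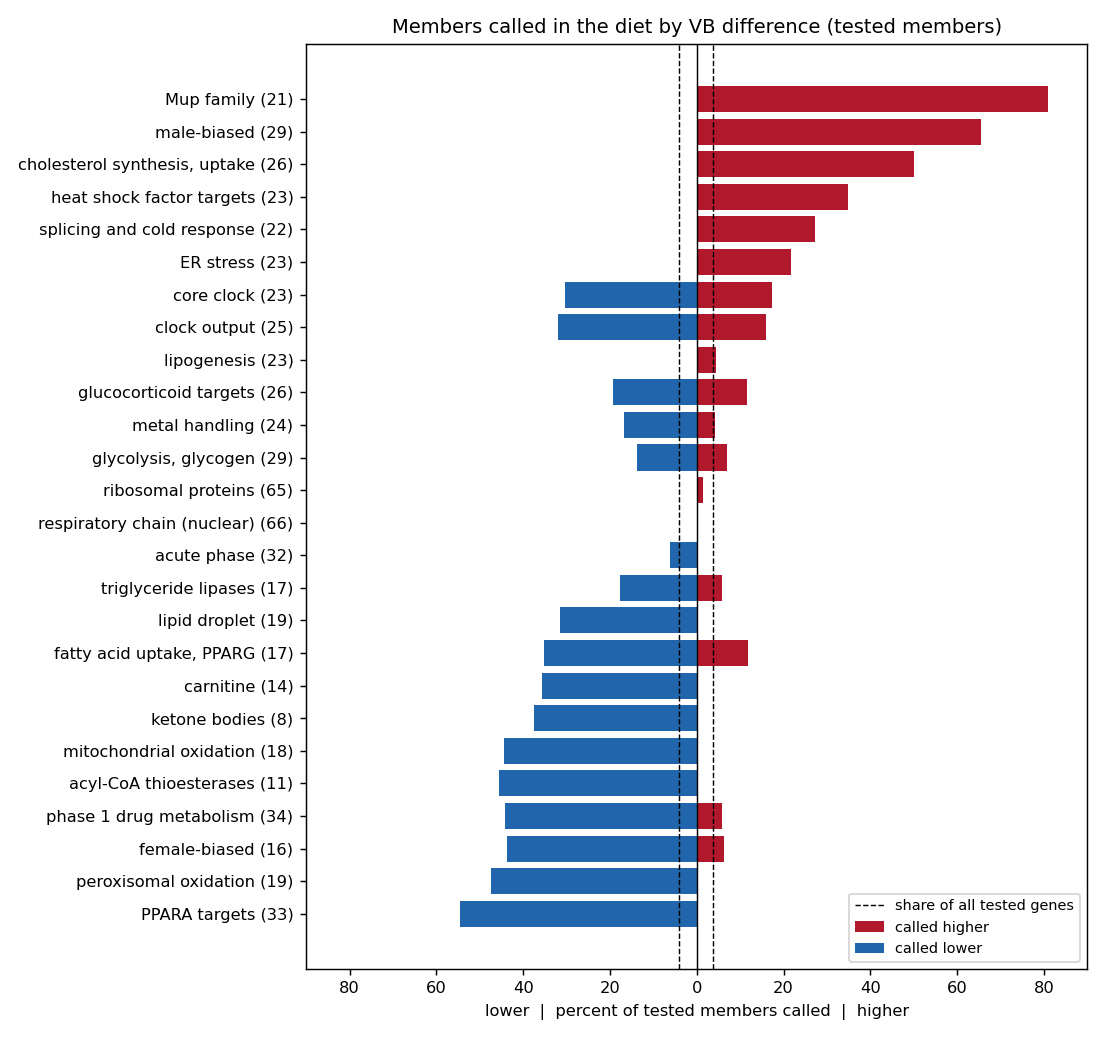
Share of tested members of 26 gene lists that differed upward (red, to the right) or downward (blue, to the left) in the diet by VB difference, with the number tested in brackets. Dashed lines mark the shares over all tested genes, 3.63% upward and 4.01% downward.

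Male-biased liver genes that passed differed upward, and most female-biased genes that passed differed downward. The pulses in which growth hormone is released in males keep male-biased genes on and female-biased genes off, and major urinary proteins (Mup), pheromone carriers made in bulk by male liver, are the best known of them. All Mup genes together took 20.3% ± 4.46 of counts in Western diet VB mice, against 11% ± 1.28 in Western diet vehicle mice, and on control diet 7.56% ± 1.44 in VB mice, against 11.1% ± 1.90 in vehicle mice (SD, n = 5 each). On Western diet VB mice ran from 15.8 to 25.2% and vehicle mice from 9.53 to 12.7%, with no overlap, while on control diet VB mice ran from 6.25 to 9.82% and vehicle mice from 8.87 to 13.7%, with overlap. The difference of VB effects was 12.9 percentage points (exact permutation test over 63504 assignments, 2-sided, p = 9.45e-05), and it was 11.643 to 13.985 points without 1 mouse at a time. Treatment was permuted within diet, which is exact for no VB effect on either diet and not for equal effects. The SDs of the groups were also unequal.

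**Figure D4:**
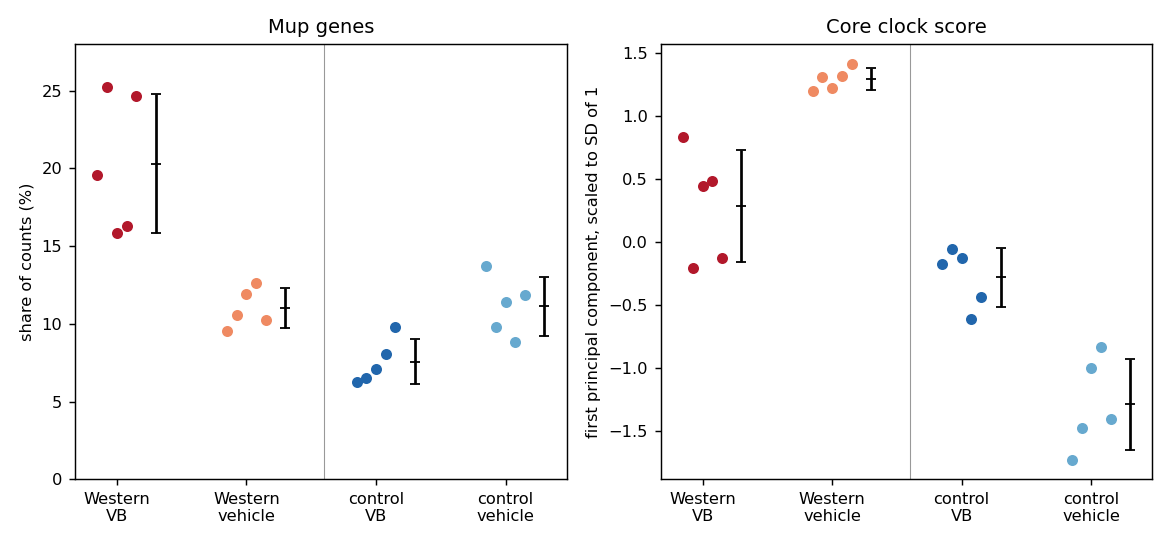
Share of counts from Mup genes (left, percent) and core clock score (right, first principal component) in each mouse by group, with mean and SD beside the points. Western diet VB mice hold the 5 highest Mup shares, and the clock score is highest in Western diet vehicle mice and lowest in control diet vehicle mice, with both VB groups between.

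Of 21 tested Mup genes 17 differed upward and none downward, with a median of 1.92, or 0.53 with the clock score in the fit. They share long stretches of sequence, so single members are uncertain. Mup12 stood at 1047, 1839, 953, 1096 and 1863 CPM in Western diet VB mice, against 398, 398, 497, 537 and 408 CPM in Western diet vehicle mice. Mup12 on control diet was at 134, 135, 177, 210.0 and 359 CPM in control diet VB mice, against 829, 362, 518, 368 and 623 CPM in control diet vehicle mice. VB mice lay above all vehicle mice on Western diet and below all of them on control diet, and it differed by 3.01 (SE 0.40, edgeR adjusted p = 0.000283). Of 29 male-biased genes, 4 of them also Mup genes, 19 differed upward and none downward, with a median of 1.13, or 0.48 with the clock score in the fit. Elovl3, which lengthens fatty acids, stood at 417, 796, 411, 497 and 965 CPM in Western diet VB mice, against 259, 312, 319, 173 and 222 CPM in Western diet vehicle mice. Elovl3 on control diet was at 789.8, 706, 837, 955 and 1079.7 CPM in control diet VB mice, against 1647, 1125, 1206, 1072 and 1376 CPM in control diet vehicle mice. VB and vehicle mice were apart on Western diet only, the difference was 1.82 (SE 0.31, edgeR adjusted p = 0.00122), and it was -0.11 with the clock score in the fit. The steroid dehydrogenase Hsd3b5 differed by 1.48 (SE 0.31), the serpin Serpina1e by 3.03 (SE 0.55) and the oxysterol hydroxylase Cyp7b1 by 1.93 (SE 0.49).

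Moxd1, a male-biased monooxygenase-like gene with the largest difference of all named genes, stood at 166, 216, 29.2, 23.3 and 403 CPM in Western diet VB mice, against 0.132, 0.747, 12.3, 2.29 and 13.1 CPM in Western diet vehicle mice. Moxd1 on control diet was at 0, 0.6005, 0.0784, 0.141 and 2.01 CPM in control diet VB mice, against 43.5, 1.05, 29.3, 1.13 and 8.28 CPM in control diet vehicle mice. The Western diet groups were apart, but mice of 1 group spread widely, and the difference was 9.78 (SE 1.84, edgeR adjusted p = 0.00362). Of 16 tested female-biased genes 7 differed downward and 1 upward, with a median of -1.53, or -0.44 with the clock score in the fit. Without Western diet VB mouse 4 the downward count in the female-biased list was 11. Cyp2b9, a female-biased cytochrome, stood at 0, 0.106, 0.491, 1.13 and 0 CPM in Western diet VB mice, against 44.97, 57.99, 23.3, 62.03 and 9.99 CPM in Western diet vehicle mice. Cyp2b9 on control diet was at 49.1, 6.45, 5.18, 6.21 and 1.46 CPM in control diet VB mice, against 0.465, 10.03, 0.698, 6.61 and 1.002 CPM in control diet vehicle mice. Western diet VB mice were all near zero, control diet VB mouse 1 stood far above its group, and the difference was -8.61 (SE 1.56, edgeR adjusted p = 0.00292). Cyp2a4 (-6.46, SE 0.96) and the transcription regulator gene Tox (-2.29, SE 0.45) also differed downward, while Cyp2c40 (2.99, SE 0.76) differed upward. The Cyp2a4 value rests on low levels, with group means of 0.122 to 1.39 CPM. Of 20 genes of the growth hormone axis 2 passed, the feedback inhibitor Socs2 downward (-3.14, SE 0.87) and Serpina12 upward (1.79, SE 0.51). That share was 10%, against 7.64% of all genes. Socs2 lost its call without any of 9 mice and Serpina12 without any of 12. The receptor Ghr (0.044, SE 0.093) and Igf1 (0.087, SE 0.16) did not pass.

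Clock genes differed in both directions. In the clock the activators Arntl, Clock and Npas2 drive repressors and output factors such as Tef, Dbp and Ciart through E-boxes, and each gene peaks at its own hour of the day. Nfil3, a repressor that opposes Dbp and Tef at shared sites, stood at 24.2, 44.6, 43.5, 40.04 and 42.1 CPM in Western diet VB mice, against 18.04, 13.9, 16.2, 15.2 and 14.8 CPM in Western diet vehicle mice. Nfil3 on control diet was at 38.4, 26.3, 31.6, 41.02 and 30.2 CPM in control diet VB mice, against 66.9, 60.4, 39.1, 49.6 and 49.1 CPM in control diet vehicle mice. Western diet VB mouse 1 was the lowest of its group, the Western diet groups were apart and the control diet groups overlapped, and Nfil3 differed by 1.98 (SE 0.23, edgeR adjusted p = 3.21e-05). Ciart stood at 10.7, 6.62, 8.14, 20.8 and 5.91 CPM in Western diet VB mice, against 15.8, 18.9, 15.3, 21.7 and 14.3 CPM in Western diet vehicle mice. Ciart on control diet was at 15.5, 9.57, 5.33, 5.22 and 7.86 CPM in control diet VB mice, against 0.310, 1.79, 1.18, 1.58 and 1.58 CPM in control diet vehicle mice. Here the control diet groups were apart and the Western diet groups overlapped, the reverse of Nfil3, and Ciart differed by -3.47 (SE 0.54, edgeR adjusted p = 0.000688). Tef was at 93.1, 49.7, 71.1, 67.7 and 65.4 CPM in Western diet VB mice, against 112, 98.6, 126, 76.8 and 127 CPM in Western diet vehicle mice. Tef on control diet was at 87.3, 75.8, 68.3, 61.1 and 63.3 CPM in control diet VB mice, against 17.8, 29.4, 32.8, 45.9 and 37.2 CPM in control diet vehicle mice. It had the pattern of Ciart and differed by -1.76 (SE 0.28, edgeR adjusted p = 0.000651).

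Of 23 core clock genes 4 differed upward and 7 downward, and of 25 clock output genes 4 differed upward and 8 downward. Upward were also Npas2 (3.96, SE 0.64), Arntl (2.43, SE 0.46) and Clock (0.60, SE 0.15), all activators, and downward Per3 (-2.32, SE 0.44), Cry2 (-0.90, SE 0.21), Nr1d2 (-1.55, SE 0.36), Hlf (-0.73, SE 0.18) and Dbp (-4.15, SE 0.85). Per1 (-0.41, SE 0.20), Per2 (-0.74, SE 0.27) and Nr1d1 (-0.18, SE 0.59) did not pass. Dbp was at 0.33 with the clock score in the fit, a score built from these genes. For Dbp Western over control diet was 0.65 (SE 0.56) in VB mice and 4.801 (SE 0.68) in vehicle mice. Among output genes Usp2, a deubiquitinase, differed by -2.72 (SE 0.44) and the uridine phosphorylase Upp2 by -1.23 (SE 0.24). Wee1, a cell cycle kinase, differed by -2.61 (SE 0.49), and by 0.21 with the clock score in the fit.

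E-boxes with the letters CACGTG, which read the same on both strands, are in the 250 bases before the start in 6.02% of all RefSeq windows. Of the 11 called core clock genes 2 hold one there, and of the 15 genes with the smallest p 12 have a window and 3 hold one. Among other sets, 3 of 10 called cholesterol genes with a window hold one, and 1 of 6 called heat shock genes. Some genes have over 1 window, so counts of genes and the share of windows are unlike measures. The stretches are printed for the clock genes and the genes with the smallest p that hold a match. The E-box is in capitals (RefSeq, build GRCm38.p6).
Ciart, chr3:95882229-95882391, minus strand: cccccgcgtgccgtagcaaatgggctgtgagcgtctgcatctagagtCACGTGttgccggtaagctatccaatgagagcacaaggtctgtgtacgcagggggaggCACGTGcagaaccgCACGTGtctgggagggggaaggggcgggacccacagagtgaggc
Tef, chr15:81802499-81802598, plus strand: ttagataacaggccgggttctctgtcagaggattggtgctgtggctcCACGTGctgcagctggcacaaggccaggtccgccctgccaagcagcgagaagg
Tef, chr15:81811229-81811328, plus strand: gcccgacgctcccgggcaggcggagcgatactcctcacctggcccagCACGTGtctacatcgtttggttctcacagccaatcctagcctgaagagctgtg
Lipe, chr7:25396090-25396189, minus strand: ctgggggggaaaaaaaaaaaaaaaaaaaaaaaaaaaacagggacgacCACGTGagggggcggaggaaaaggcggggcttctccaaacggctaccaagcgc
Sec22c, chr9:121705151-121705250, minus strand: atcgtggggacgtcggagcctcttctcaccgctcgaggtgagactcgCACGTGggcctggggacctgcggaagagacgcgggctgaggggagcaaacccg
Cited2, chr10:17723028-17723127, plus strand: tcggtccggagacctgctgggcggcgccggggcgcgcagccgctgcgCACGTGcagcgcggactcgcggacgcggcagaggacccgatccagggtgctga
Ciart holds 3 E-boxes in its stretch, both windows of Tef hold 1 each and 1 of the 2 windows of Lipe holds 1. A match is a description of the letters and was not tested as a binding site. The D-box TTATGTAA, read on both strands and found in 0.819% of windows, is in 1 called clock gene, Per3. The sterol regulatory element TCACCCCAC, found in 0.496% of windows, is in 0 of the 10 called cholesterol genes with a window.

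Sec22c, a vesicle transport gene, stood at 8.38, 8.11, 8.67, 10.5 and 9.23 CPM in Western diet VB mice, against 12.2, 13.2, 15.6, 11.8 and 13.6 CPM in Western diet vehicle mice. Sec22c on control diet was at 8.84, 11.3, 9.88, 10.1 and 10.4 CPM in control diet VB mice, against 5.58, 5.41, 5.53, 6.47 and 6.43 CPM in control diet vehicle mice. VB mice lay below all vehicle mice on Western diet and above all of them on control diet, and the difference was -1.34 (SE 0.15, edgeR adjusted p = 2.75e-05). Cited2, a transcription co-regulator that restrains hypoxia signalling, was at 23.2, 23.7, 26.6, 28.3 and 25.9 CPM in Western diet VB mice, against 17.1, 16.1, 17.8, 21.2 and 12.03 CPM in Western diet vehicle mice. Cited2 on control diet was at 18.1, 17.9, 14.4, 13.7 and 15.7 CPM in control diet VB mice, against 26.96, 24.8, 26.1, 25.4 and 22.6 CPM in control diet vehicle mice. It had the opposite pattern, again with no overlap, and differed by 1.26 (SE 0.16, edgeR adjusted p = 0.000129). The Wnt receptor gene Fzd4, second in the order of p, differed by -2.22 (SE 0.23), with 7.92 ± 1.76 CPM in Western diet VB mice, against 23.5 ± 4.11 CPM in Western diet vehicle mice, and on control diet 9.81 ± 1.21 CPM in VB mice, against 6.22 ± 1.46 CPM in vehicle mice (SD, n = 5 each). Ddc, which makes dopamine and serotonin from their amino acid precursors, differed by 1.41 (SE 0.18). Proser2 differed by 1.08 (SE 0.14).

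**Figure D5:**
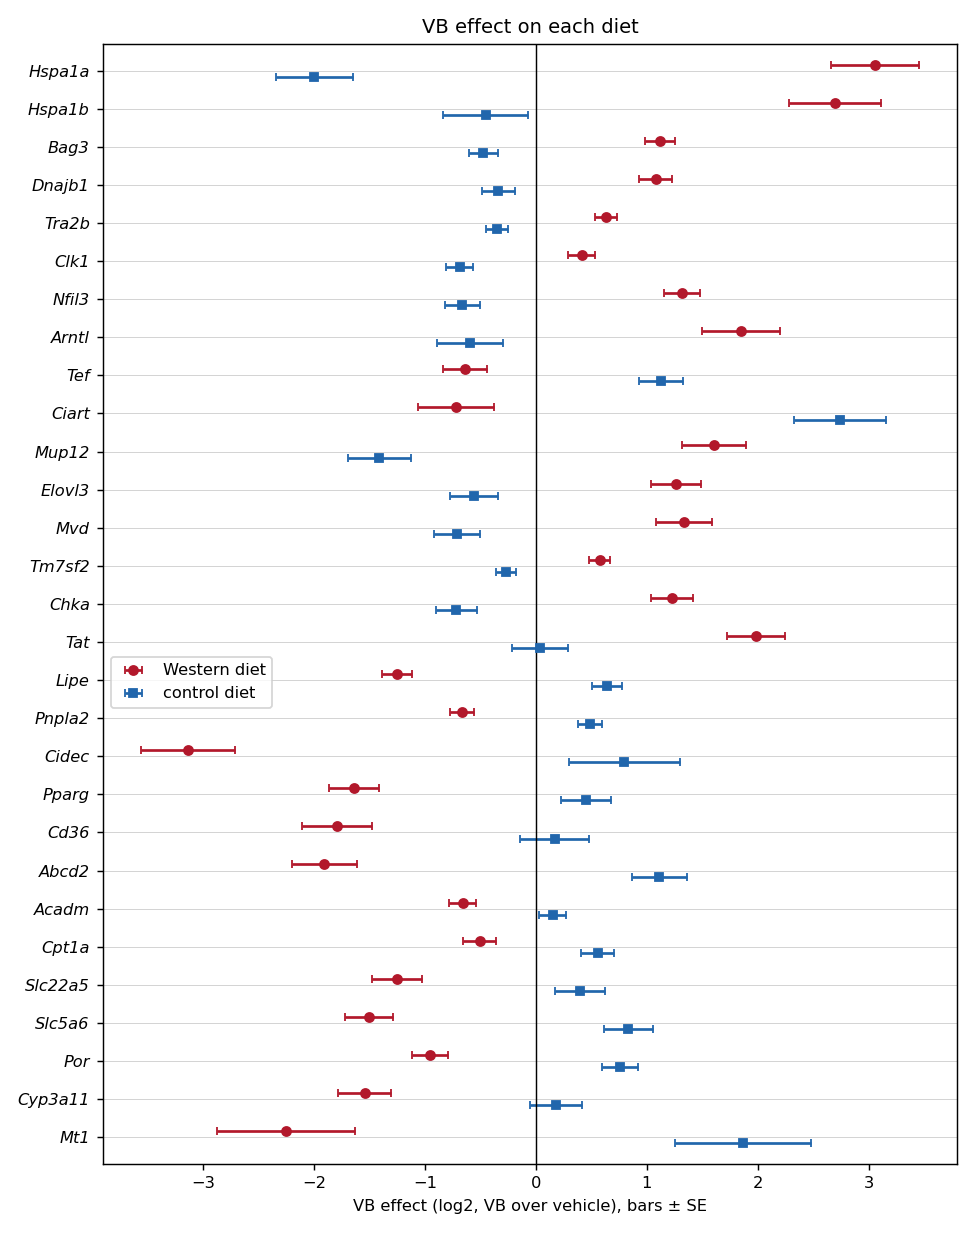
VB effect (log2 of VB over vehicle, bars for SE) on Western diet (red circles, upper of each pair) and on control diet (blue squares) for 29 genes. For Hspa1a, Clk1, Mup12, Lipe and Abcd2 the effects lie on opposite sides of zero, while Tat is at 1.98 on Western diet and 0.037 on control diet.

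Genes of phase 1 drug metabolism that passed differed mostly downward. Por, which passes electrons to all microsomal cytochromes P450, stood at 372, 332, 387, 484 and 431 CPM in Western diet VB mice, against 642, 817, 737, 766 and 923 CPM in Western diet vehicle mice. Por on control diet was at 518, 437, 408, 440.0 and 558 CPM in control diet VB mice, against 165, 236, 281, 355 and 358 CPM in control diet vehicle mice. VB mice were below vehicle mice on Western diet and above them on control diet without overlap, and the difference was -1.71 (SE 0.23, edgeR adjusted p = 0.000182). Of 34 genes of phase 1 metabolism 15 differed downward and 2 upward, with a median of -0.55. With the clock score in the fit the median was 0.023. The count was 9 without control diet VB mouse 2 or 3 or control diet vehicle mouse 1. Cyp3a11, the main drug-oxidising cytochrome, differed by -1.73 (SE 0.33), with a VB effect of -1.54 (SE 0.24) on Western diet and 0.19 (SE 0.23) on control diet. The receptor Nr1i2 (PXR) differed by -0.54 (SE 0.16), while Nr1i3 (CAR) did not pass, at -0.52 (SE 0.25). Cyp2c70, an enzyme of bile acid hydroxylation in mice, differed upward by 1.22 (SE 0.28). Many Cyp2 and Cyp3 genes are near copies of each other, which leaves the value of each alone uncertain. Of 38 genes of phase 2 conjugation 4 differed upward and 2 downward, beside 3.63% upward and 4.01% downward among all genes. Together these calls were 15.8% of the list, against 7.64% of all genes. The median of the list was -0.24, or 0.10 with the clock score in the fit. Leaving out 1 mouse gave 2 to 5 calls upward and 2 to 7 downward. The count upward was 2 without Western diet VB mouse 2 or 5, Western diet vehicle mouse 2, 3 or 5, control diet VB mouse 2, 4 or 5, or control diet vehicle mouse 1 or 3. The count downward was 7 without Western diet VB mouse 4 and 4 without Western diet vehicle mouse 1. The glutathione transferase Gstp1 (1.64, SE 0.34), which has a near-identical copy, differed upward and the glucuronosyltransferase Ugt1a1 (-0.63, SE 0.16) downward. The bile acid exporter Abcc3 differed by -1.59 (SE 0.30) and the NRF2 target Nqo1 by -1.35 (SE 0.31). Nqo1 was the 1 of 24 NRF2 genes that passed (4.17%, near the 4.01% downward among all genes).

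Tat, which starts the breakdown of tyrosine and is induced by glucocorticoids, had groups apart on Western diet only. Tat stood at 3528, 2776, 1829, 2155 and 2298 CPM in Western diet VB mice, against 686, 877, 535, 653 and 429.9 CPM in Western diet vehicle mice. Tat on control diet was at 4166, 2279, 1379, 2074 and 2327 CPM in control diet VB mice, against 2282, 3475, 1727, 2226 and 2203 CPM in control diet vehicle mice. The Western diet vehicle mice were below all other mice, the control diet groups overlapped, and the difference was 1.95 (SE 0.36, edgeR adjusted p = 0.00236). Western over control diet was 0.042 (SE 0.25) in VB mice and -1.91 (SE 0.26) in vehicle mice. Of 26 glucocorticoid targets 3 differed upward and 5 downward. Tsc22d3, which encodes GILZ, differed by 1.82 (SE 0.35), but Fkbp5, another target, by -1.84 (SE 0.49). Without Western diet VB mouse 3 the upward count was 5, and without Western diet VB mouse 2 or control diet vehicle mouse 3 the downward count was 3. The metallothionein Mt1, a metal-binding protein that metals and glucocorticoids induce, stood at 162, 47.8, 49.5, 202 and 36.5 CPM in Western diet VB mice, against 247, 471, 234, 897 and 520.1 CPM in Western diet vehicle mice. Mt1 on control diet was at 452, 140.3, 102, 267 and 239 CPM in control diet VB mice, against 10.1, 91.4, 79.8, 73.8 and 73.6 CPM in control diet vehicle mice. VB was lower on Western and higher on control diet without overlap, control diet vehicle mouse 1 was the lowest mouse, and the difference was -4.12 (SE 0.88, edgeR adjusted p = 0.00828). Mt2 differed by -4.47 (SE 0.99). The zinc exporter Slc30a1 differed by -1.17 (SE 0.21) and the manganese exporter Slc30a10 by 1.16 (SE 0.21). Of 24 metal genes 4 differed downward, or 7 without Western diet vehicle mouse 4.

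Glycogen genes split. Gys2, liver glycogen synthase, stood at 135, 92.4, 111, 129 and 122 CPM in Western diet VB mice, against 183, 197, 186, 186 and 205 CPM in Western diet vehicle mice. Gys2 on control diet was at 146, 129, 121, 102 and 131 CPM in control diet VB mice, against 74.9, 109, 116, 95.2 and 104 CPM in control diet vehicle mice. Only the Western diet groups were apart, and Gys2 differed by -1.04 (SE 0.16, edgeR adjusted p = 0.000527). The glycogen-targeting subunits of protein phosphatase 1, Ppp1r3b (1.03, SE 0.18) and Ppp1r3c (1.73, SE 0.32), differed upward, while Ugp2 (-0.66, SE 0.12), which makes UDP-glucose, differed downward. The gluconeogenic genes G6pc (1.82, SE 0.60) and Pck1 (0.41, SE 0.24) did not pass.

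Chka, the first kinase of phosphatidylcholine synthesis, stood at 29.2, 44.9, 43.04, 35.9 and 59.3 CPM in Western diet VB mice, against 26.2, 20.9, 18.4, 9.37 and 15.7 CPM in Western diet vehicle mice. Chka on control diet was at 32.7, 29.98, 33.9, 31.1 and 29.99 CPM in control diet VB mice, against 54.5, 52.8, 56.3, 48.3 and 47.7 CPM in control diet vehicle mice. All VB mice lay above the vehicle mice on Western diet and below them on control diet, and the difference was 1.94 (SE 0.26, edgeR adjusted p = 0.000209). Of 29 genes of choline and methyl metabolism 3 differed upward, among them Chka and Pcyt2 (0.42, SE 0.11), an enzyme of phosphatidylethanolamine synthesis. Mat1a, which makes S-adenosylmethionine, differed downward by -0.85 (SE 0.26), a call lost in 16 of the 20 fits that left out 1 mouse. The betaine-using enzyme Bhmt (0.43, SE 0.27), the choline dehydrogenase Chdh (-0.46, SE 0.18) and Pemt (0.33, SE 0.15) did not pass.

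Several lists had edgeR calls in numbers near the shares of all genes or below them. Of 32 acute phase genes 2 differed downward (6.25%, against 4.01% of all genes) and of 32 interferon-stimulated genes 2 upward (6.25%, against 3.63% of all genes). None of 23 immediate early genes passed in edgeR, DESeq2 or limma-voom, and 4 had an unadjusted p under 0.05, with Fos at 0.94 (SE 0.87) and Egr1 at -0.44 (SE 1.05). Without Western diet vehicle mouse 4 edgeR called 1 of them. Of 42 genes of amino acid breakdown and the urea cycle 1 differed upward, Tat, and 1 downward, Aass. Of 24 cell cycle genes 1 passed, Wee1. Of 65 ribosomal protein genes 1 differed upward, Rpl3 (0.44, SE 0.13), but 63 had a positive value, the median was 0.32, and 39 passed, with a median of 0.53, without Western diet vehicle mouse 4, the mouse with the high mitochondrial share. With all mice kept, limma-voom called 21 ribosomal protein genes upward and DESeq2 called 3. Of 45 counts of 1 to 3 in these lists, 27 moved by over 1.5 times when some single mouse was left out, so such counts rest on single calls.

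Further genes were among those with the largest differences. Lrp2, the endocytic receptor megalin, differed by 4.97 (SE 0.83), with 1.93 ± 1.57 CPM in Western diet VB mice, against 0.338 ± 0.153 CPM in Western diet vehicle mice, and on control diet 0.180 ± 0.0554 CPM in VB mice, against 1.04 ± 0.718 CPM in vehicle mice (SD, n = 5 each). Bhlha15, a transcription factor of secretory cells, differed by 4.26 (SE 0.89) and the receptor gene Adgrf1 by 3.59 (SE 0.76). Both rest on low levels, with means in Western diet vehicle mice of 0.110 CPM for Bhlha15 and 0.197 CPM for Adgrf1. The highest group mean of Bhlha15 was 1.003 CPM, in control diet vehicle mice. The selenium-binding protein gene Selenbp2, also in the male-biased list, differed by 3.49 (SE 0.91), a call lost in 3 of the 20 fits that left out 1 mouse. The transporter gene Slc16a5 differed by -3.85 (SE 0.76) and the sulfotransferase gene Gal3st1 by -3.59 (SE 0.66). Cdh1, which encodes E-cadherin, an adhesion protein of periportal hepatocytes, differed by 2.85 (SE 0.50), with 17.3 ± 6.87 CPM in Western diet VB mice, against 3.81 ± 1.88 CPM in Western diet vehicle mice, and on control diet 10.8 ± 4.01 CPM in VB mice, against 17.2 ± 5.92 CPM in vehicle mice (SD, n = 5 each). Rnase2a was at 0 CPM in all control diet VB mice, so no fold is given for it.

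Of 71 tested markers of 9 other cell types 5 passed (7.04%), close to the 7.64% of all genes. In bulk liver, fewer cells of a type and less RNA per cell cannot be told apart. None of 13 Kupffer cell, 13 stellate, 12 endothelial, 10 lymphocyte, 3 neutrophil and 6 erythroid markers passed in edgeR. At an unadjusted p under 0.05 there were 2 stellate, 3 lymphocyte and 1 erythroid markers and none of the other types. DESeq2 called 3 lymphocyte markers and limma-voom 2, all upward, and neither called a marker of the other 5 types. Without Western diet vehicle mouse 4 edgeR called 2 lymphocyte markers. All 12 endothelial markers had a negative difference, with a median of -0.32, and their summed level ran from 102 to 272 CPM with VB and from 158 to 321 CPM with vehicle on Western diet, and from 207 to 266 CPM with VB and from 196 to 259 CPM with vehicle on control diet. Of 6 bile duct markers Sox9 differed, by 1.197 (SE 0.31), and by -0.28 with the clock score in the fit. The adipocyte list had 7 tested members of 11, of which Lipe and Cidec differed downward and the adrenergic receptor gene Adrb3 upward (1.75, SE 0.37). None of its members was at 0 in all mice, and it includes Pck1, which hepatocytes express. Its summed level ran from 6077 to 7591 CPM with VB and from 5521 to 10059 CPM with vehicle on Western diet, and from 5904 to 8591 CPM with VB and from 6973 to 8639 CPM with vehicle on control diet. Car3 (group means of 3341 to 4859 CPM) and Pck1 (1892 to 3666 CPM) made up most of that level. The sum therefore says little about the other members of that list. Cfd, an adipokine gene of that list, was at -3.41 (SE 1.05) and did not pass (edgeR adjusted p = 0.0573), with 4.97, 32.3, 19.6, 22.4 and 11.6 CPM in Western diet VB mice, against 159, 244, 137, 265 and 30.1 CPM in Western diet vehicle mice. The defining markers Adipoq, Lep, Plin1 and Retn were too low to be tested and, unlike Lipe and Cidec, were at their highest in Western diet VB mice. Adipoq, the adiponectin gene, was at 7.31 and 4.09 CPM in Western diet VB mice 2 and 5, at 0 in the other 3 VB mice and at most at 0.176 CPM in any other mouse. Retn (4.34 and 2.40 CPM), Plin1 (2.44 and 1.35 CPM) and Lep (2.23 and 0.0961 CPM) were also highest in mice 2 and 5. In these mice Lipe (9.80 and 10.8 CPM) and Cidec (12.1 and 8.03 CPM) lay within the range of the other 3 mice of their group. Adrb3 (5.35 and 5.67 CPM), Elovl3 (796 and 965 CPM) and the Mup share (25.2 and 24.6%) were the highest of the group there, and the part of adipocyte RNA in these was not tested. Of 12 pancreatic acinar markers 1 was high enough to be tested, the elastase gene Cela1 (1.400, SE 0.22), and Cel was at 0 in all mice.

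By the correlation of log2 CPM over the 20 mice, the tested genes most like Lipe were Gpcpd1 (Pearson r = 0.94), Wdr73 (0.93), Fzd4 (0.93), Aqp11 (0.92) and Cidec (0.92). Those most like Hspa1a were Bag3 (0.89), Banp (0.89), Dnajb1 (0.88), Cks1b (0.87) and P4ha1 (0.86). The mice of a group share diet and treatment, so these values describe likeness of pattern over 4 groups and carry no test.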

How the data were processed

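Liver RNA (TruSeq libraries from 1 ug of total RNA, per the labels' protocols) was measured as gene counts, deposited by the authors as a table of raw whole-number counts with 2 lanes per mouse. The submitters' processing notes name build GRCm38. Which aligner, counter, annotation and strand setting were used is not given in the sources used here. Overlapping and antisense genes therefore cannot be told apart. The lanes of a mouse differed by little more than counting noise (chi-square per degree of freedom 1.33 to 1.49, against 17.7 to 146 between mice of a group) and were summed, giving 16315342 to 24566686 counts per mouse. Groups come from the sample titles. For 1 lane of Western diet VB mouse 1 the treatment label reads Vehicle, against its title, and its other lane matched it. No label states a batch.

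Of 32544 genes 12616 passed edgeR's filterByExpr (minimum count 10, minimum total 15). Tests used edgeR 4.0.16 in R 4.3.3 with TMM factors, a robust quasi-likelihood fit over all 20 mice in 4 groups, Benjamini-Hochberg adjustment over all tested genes and a threshold of 0.05. The Mup and mitochondrial shares were tested by exact permutation of treatment within diet. That test is exact for no VB effect on either diet, and not for equal VB effects on the diets. Alternatives were other scalings, DESeq2 1.42.0, limma 3.58.1 (voom with quality weights), other filters, lane 1 alone, mouse number as a block, the clock score as a covariate, a minimum fold of 1.2 and the removal of each mouse in turn. In simulated data with known changes in the interaction (12491 genes), the test called 9 of 48 genes at 1.5-fold, 32 of 49 at 2-fold, 39 of 50 at 3-fold and 43 of 50 at 4-fold, with 8 false calls. The simulation changed the Western diet VB group alone and drew noise independently for each gene and mouse. Its rates therefore need not hold for the reported calls.

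The members and gene lists were chosen with earlier results of these data known. Named genes are the 15 called genes with the smallest p, the 10 largest called differences in each direction with a mean of at least 1 CPM in the highest group and, from each list, the called members with the smallest p, at most 3. Genes outside this rule, among them all those that did not pass, were chosen after their values were seen. Some genes are not reported here.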

Additional observations from a re-analysis of the deposited data

Results flagged for a closer look

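Among 124 groups of 5 mice checked, 5 held a mouse whose gap to the nearest other mouse exceeded 0.71 of the range of the group, and chance gives about 1 in 20 groups. For Nfil3, Western diet VB mouse 1 had 24.2 CPM, while the others had 40.0 to 44.6 CPM. For Gpcpd1, Western diet vehicle mouse 5 had 209 CPM, while the others had 133 to 141 CPM. For Cyp2b9, control diet VB mouse 1 had 49.1 CPM, while the others had 1.46 to 6.45 CPM. For Mt1, control diet vehicle mouse 1 had 10.1 CPM, while the others had 73.6 to 91.4 CPM. The mitochondrial share of Western diet vehicle mouse 4 was 4.62%, while the others had 2.34 to 2.68%.

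Effects of VB differed between the diets for 964 genes by the edgeR test given above. For the Mup share of counts they differed by 12.9 percentage points, by the permutation test with the limit given above.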

How the results depend on the processing

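The 964 calls of the diet by VB difference became 967 with RLE factors, 986 with upper-quartile factors, 967 without Mup genes in the library sizes, 1300 with DESeq2, 736 without the filter, 978 at a mean of at least 1 CPM and 818 from lane 1 alone. They became 1661 with limma-voom, 427 at a fold minimum of 1.2 and 1 with the clock score as a covariate. Leaving out 1 mouse gave 665 to 1702 calls, the highest without Western diet vehicle mouse 4. The 907 calls of VB on Western diet became 6 with the clock score and 287 at the fold minimum, and 605 to 1225 without 1 mouse. The 19 calls of VB on control diet became 29 with upper-quartile factors, 30 without Mup genes in the library sizes, 164 with DESeq2, 261 with limma-voom, 0 with the clock score (833 at an unadjusted p under 0.05 in edgeR) and 3 at the fold minimum. Their higher share was 36.8%, or 48.3% with upper-quartile factors and 53.3% without Mup genes. Leaving out 1 mouse gave 6 to 66 calls on control diet, with 6, 11 and 66 without control diet vehicle mice 1, 3 and 5, 10 and 8 without control diet VB mice 3 and 4, and 52 and 29 without Western diet vehicle mice 4 and 5.

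Same-numbered mice correlated in their deviations above 0.1 in 7 of 30 pairs (-0.065 to 0.378). Differently numbered mice were not compared, so these values cannot decide whether the numbers pair mice. With the mouse number as a replicate block the calls were 1146 for the diet by VB difference and 65 for VB on control diet. The Mup share difference under this replicate block was 12.871 points (exact sign-flip p = 0.0625, the smallest possible with 5 numbers). Without 1 mouse the Mup difference was 11.643 to 13.985 points, and the mitochondrial share difference was -0.49046 to 0.084477 points, the highest without Western diet vehicle mouse 4.

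Under the clock score Dbp (0.33227), Bdh1 (0.28767), Cyp7b1 (-0.2366), Elovl3 (-0.10828), Serpina3m (0.28719), Wee1 (0.20903) and Sox9 (-0.28167) had the opposite sign. The score shares its variation with the groups, so diet, VB and clock phase cannot be told apart by it. Of the 119 genes of the naming rule none lost its call under RLE, upper-quartile, Mup-free scaling and DESeq2, 5 did with limma-voom, 9 without the filter, 2 of 117 from lane 1 and 1 under the replicate block. With the clock score 111 lost it beside the 7 reversed, and 1 to 14 did without 1 mouse, the most without control diet vehicle mouse 1. Limits are 5 mice a group, no stated collection time, a naming form that follows diet, library numbers that follow group and near-identical gene copies.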
